A study of Homo sapiens with 15 samples.

Results

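The SPANX genes (sperm protein associated with the nucleus, X chromosome) were followed through 15 Nanopore cDNA libraries of SNB19 cells, a human glioblastoma line. The symbols concerned, SPANXA1, SPANXA2, SPANXB1, SPANXC and SPANXD, are 5 of 18485 genes in the count table, and all 5 passed the filter on low counts that left 6767 genes to be tested. The members were chosen by measured values: these symbols stood out for a rise with full-length ZBTB18 and with its mutant against the empty vector. Differences that involve EV, FL or FL-mut, and the counts of members past the threshold in them, are therefore descriptions and count as no test of the members. Cells of every group had been transduced with a lentiviral pCHMWS vector and grown in DMEM with 10% serum. EV stands for the empty vector and FL for ZBTB18 in full length. FL-mut carries the mutated full-length protein, SF-Nte the form that the labels call short form Nte, and SF-mut the mutated short form, with 3 libraries per group. The labels name neither the mutated residues nor the promoter of the vector, and they do not say whether replicates were separate cultures, so that the spread between libraries may be technical in part. All groups are transduced cells of 1 line, and no untransduced cells were analysed here.

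SPANX genes encode small proteins of the sperm nucleus and are read in spermatids, the haploid cells that become sperm. In most other healthy tissue they are silent. They belong to the cancer-testis genes, which are switched on again in many tumours, and promoter DNA methylation is known to keep several such genes off. The family arose by recent duplication on the long arm of the X chromosome, and a related branch, the SPANXN genes, is older. ZBTB18 is a zinc finger transcription factor with a BTB domain that mostly represses its targets. It is needed for the development of cortical neurons and is often lost in glioblastoma.

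The members are close copies of each other, and the openings of their coding sequences are shown because this likeness bears on how far their counts can be told apart. The first 150 coding bases are given from the start codon, read from GENCODE v29 on GRCh38, with capitals at bases that differ from SPANXA1 or have no partner there. SPANXA2 is identical to SPANXA1 over all 291 coding bases, and SPANXD is identical to SPANXC over the stretch shown.
SPANXA1: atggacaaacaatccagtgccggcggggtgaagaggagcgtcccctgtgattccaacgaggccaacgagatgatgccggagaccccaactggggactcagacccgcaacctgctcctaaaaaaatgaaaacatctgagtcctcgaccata
SPANXB1: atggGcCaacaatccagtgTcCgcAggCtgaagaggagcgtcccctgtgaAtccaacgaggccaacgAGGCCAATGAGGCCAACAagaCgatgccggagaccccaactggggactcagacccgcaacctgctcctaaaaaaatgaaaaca
SPANXC: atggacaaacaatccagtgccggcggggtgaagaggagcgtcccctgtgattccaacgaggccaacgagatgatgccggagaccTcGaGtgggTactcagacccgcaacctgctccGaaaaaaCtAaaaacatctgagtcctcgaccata
Over the whole coding sequence SPANXC was 96.56% and SPANXD 96.91% identical to SPANXA1, with 10 and 9 mismatches, and SPANXC and SPANXD differed from each other at 3 bases (98.97% identical). SPANXB1 was the most distant member. Its 309 coding bases carried 18 that SPANXA1 lacks and 19 mismatches, an identity of 88.03%.

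All 5 genes are protein coding, have 2 exons and lie on the X chromosome within 696.1 kb (GENCODE v29, GRCh38). SPANXB1 lies at chrX:141002591-141003706 on the plus strand. SPANXC lies at chrX:141241463-141242496 on the minus strand. SPANXA1 at chrX:141583674-141585011 (minus strand) and SPANXA2 at chrX:141589435-141590772 (plus strand) are neighbours in opposite orientation. SPANXD lies at chrX:141697411-141698739 on the minus strand.

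Upstream regions are nearly identical too among SPANXA1, SPANXA2, SPANXB1 and SPANXC where their windows align. They are shown for SPANXC and SPANXB1, whose start sites nearly coincide in RefSeq and GENCODE. The bases are from RefSeq's promoter windows (GRCh38.p14) and stop before the start in both annotations. SPANXC covers chrX:141242518-141242767 (minus strand, 250 bases) and SPANXB1 covers chrX:141002344-141002590 (plus strand, 247 bases). Capitals mark bases that differ from the window of SPANXA1 or are inserted within the stretch aligned to it. The SPANXA1 window opens with the same bases as that of SPANXC, and the first bases of SPANXB1, which lie upstream of that opening, were not compared and are in lower case.
SPANXC: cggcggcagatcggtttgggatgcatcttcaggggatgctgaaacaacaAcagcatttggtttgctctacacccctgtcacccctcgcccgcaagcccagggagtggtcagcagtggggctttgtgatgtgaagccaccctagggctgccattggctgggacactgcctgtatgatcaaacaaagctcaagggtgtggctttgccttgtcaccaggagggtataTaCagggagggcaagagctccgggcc
SPANXB1: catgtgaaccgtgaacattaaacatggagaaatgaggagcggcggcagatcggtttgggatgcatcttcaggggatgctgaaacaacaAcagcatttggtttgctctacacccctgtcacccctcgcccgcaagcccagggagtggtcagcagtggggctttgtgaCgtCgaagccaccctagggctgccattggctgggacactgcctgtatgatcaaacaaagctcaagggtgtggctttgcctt
RefSeq windows of 300 bases (250 before the start and 50 after it) were found for all 5 members. The windows of SPANXA1 and SPANXA2 were identical, that of SPANXC was 98.33% identical to them, and that of SPANXB1 was 97.7% identical over the 261 aligned columns they share. The window of SPANXD begins farther upstream in RefSeq, and only 27 bases of it overlap that of SPANXA1. The windows held 6 (SPANXA1 and SPANXA2), 9 (SPANXB1), 8 (SPANXC) and 7 (SPANXD) CpG dinucleotides, the sites of DNA methylation.

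Motifs were searched on both strands of these windows and of the first window of each of 27305 genes. ZBTB18 is known to bind sites with the core CATCTG. On either strand that core was in 14.8% of all windows and in 0 of the 5 SPANX windows. The longer ACATCTG, which contains it, was in 3.42% and again in 0. CCAAT was found once in each member, as in 35.7% of all windows. TGACGTC, the cAMP response element, was in 3.63% of all windows and only in that of SPANXB1 among the members. In the coding sequence, by contrast, each of the 5 members held ACATCTG once, from coding base 130 in SPANXA1, SPANXA2, SPANXC and SPANXD and from base 148 in SPANXB1. CATCTG in either orientation was in 22.6%, and ACATCTG in 5.11%, of the first 291 coding bases of 19121 genes (the longest coding sequence of each). Copies inherit their letters from each other, so 5 matches, or 5 windows without a match, are not 5 independent ones. The windows of SPANXA1 and SPANXA2 lie wholly downstream of their GENCODE starts, so bases before those starts were not searched. A match in the sequence does not show binding.

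Whole-gene totals ranged from 315693 to 1930245 counts per library, and the short-form libraries were the shallowest (315693 to 603155, against 803316 and more elsewhere). Levels are CPM (TMM-scaled, computed from the counts), and intervals cover counting error only. Deposited sample sheets list SF-mut apart from EV, FL and FL-mut, under barcode names that repeat with a suffix, while SF-Nte appears on both sheets; whether SF-mut was handled in a separate run is not stated and cannot be told apart from its construct. Of 16 listed markers of glial tumour cells 14 were in the table and 9 had enough counts to be tested. In each group 1 or 2 of the 14 had 0 counts. The summed level of the list ran from 579.7 to 1751 CPM. VIM, the vimentin filament gene, held 546.7 ± 227 CPM (SD, n = 3) of that sum in EV. GFAP, the astrocyte filament gene, was near 0 with 0.82 ± 0.75 CPM in EV.

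The ZBTB18 row checked the labels first. With the empty vector it held 7.001, 4.37 and 7.12 CPM. The FL libraries had 635.3, 3067 and 623.3 CPM, and FL-mut reached 906.9, 2800 and 6858 CPM. The short form gave 470, 199.5 and 234.1 CPM, its mutant 853, 3631 and 896 CPM. Each construct library was thus above every EV library. The row does not separate the cell's own transcript from the construct, nor the full-length from the short form.

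SPANXA1 and SPANXA2 had the same count in 14 of 15 libraries and differed by 1 in the other, FL-mut replicate 1 (369 and 370). They are treated as a single signal, under the name SPANXA1, and only 4 of the 5 rows are distinct. SPANXA1 had 27.5, 24.0 and 14.2 CPM in EV (55, 33 and 16 counts). The FL libraries had 161.6, 206.5 and 97.8 CPM, and the FL-mut libraries 372.6, 98.5 and 179.2 CPM. The lowest of these 6 libraries was at 97.8 CPM and the highest of EV at 27.5, so the full-length groups and EV did not overlap. With the short forms SPANXA1 had 13.5, 9.41 and 17.4 CPM in SF-Nte and 32.7, 6.17 and 16.4 CPM in SF-mut, where only 2 to 20 counts were read in a library. These ranges overlapped that of EV.

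SPANXB1, the copy with the most distinct coding sequence, had 16, 14.6 and 8.01 CPM in EV. It reached 103.3, 240.1 and 112.3 CPM in FL and 251.5, 56.6 and 243.3 CPM in FL-mut. The short forms left it at 5.78, 16.9 and 7.47 CPM in SF-Nte and at 14.7, 12.3 and 4.10 CPM in SF-mut. FL-mut replicate 2 was the lowest of the 6 full-length libraries, though still above every EV and short-form library.

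SPANXC was the least counted copy. Its EV libraries held 8.002, 5.83 and 8.01 CPM, those of FL 90.2, 83.3 and 50.3, and those of FL-mut 188.8, 46.4 and 72.2. SPANXC had 5.78, 5.65 and 7.47 CPM in SF-Nte, which is 3 counts in each of the 3 libraries, and 13.1, 3.08 and 2.05 CPM in SF-mut. Single counts stand behind the last 2 values, and their 95% intervals reach down to near 0.

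SPANXD had 20, 18.2 and 9.79 CPM in EV. FL gave 106.8, 153.0 and 71.6 CPM, and FL-mut 245.4, 76.96 and 119.4 CPM. SPANXD was at 13.5, 9.41 and 17.4 CPM in SF-Nte and at 19.6, 6.17 and 14.3 CPM in SF-mut. As for the other copies, the short-form and EV ranges overlapped and the full-length libraries lay above both.

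**Figure D1:**
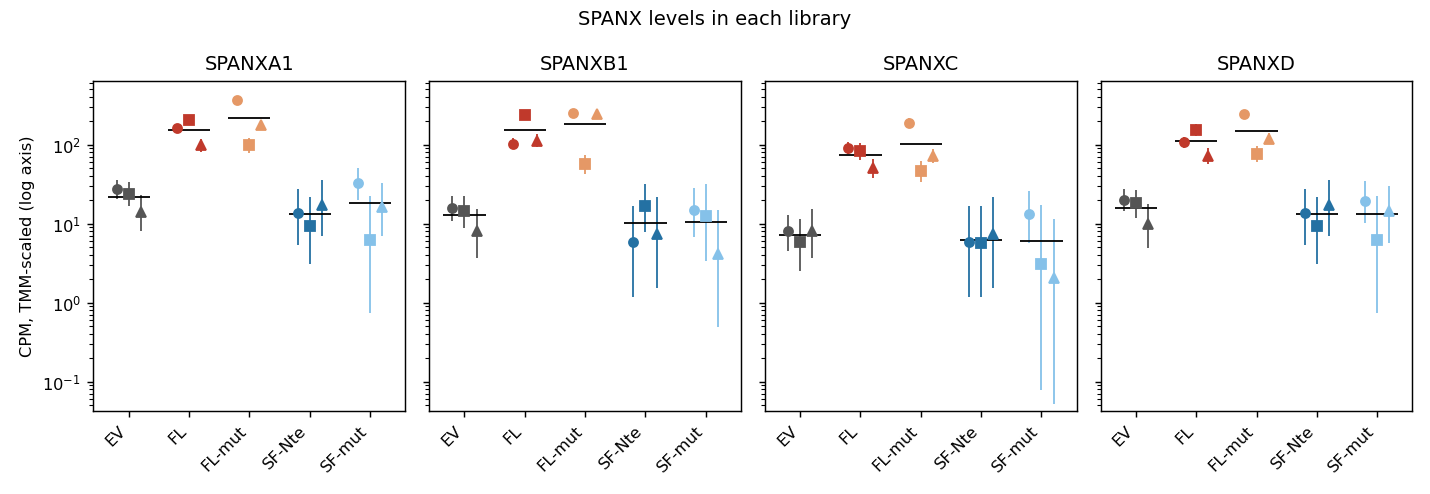
Level of each distinct SPANX row in each library, in CPM on a log axis, by group; circles, squares and triangles are replicates 1, 2 and 3, vertical bars are exact 95% Poisson intervals of the count, and black lines are group means. In all 4 panels the FL and FL-mut libraries lie above those of EV, SF-Nte and SF-mut, and the bars are widest in the shallow short-form libraries.

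The sum of the 4 distinct rows, which may hold a read more than once if it was counted for several copies, ordered the groups as FL-mut at 650.3 ± 391 CPM, FL at 492.3 ± 177, EV at 58.1 ± 16.2, SF-mut at 48.2 ± 27.9 and SF-Nte at 43.2 ± 5.86 CPM (mean ± SD, n = 3 each). FL-mut and FL, next to each other in that order, did not differ beyond their spread, and neither did EV, SF-mut and SF-Nte. The only step in the order that left a gap between libraries was that from EV to FL. By library the sum was 71.5, 62.7 and 40.1 CPM in EV, 461.9, 682.9 and 332.0 in FL, and 1058, 278.4 and 614.2 in FL-mut. SF-Nte had 38.5, 41.4 and 49.8 CPM and SF-mut 80.1, 27.7 and 36.9 CPM. FL-mut replicate 1 was the highest of all 15 libraries and FL-mut replicate 2 the lowest of the full-length ones. From bulk RNA, more cells with SPANX transcripts cannot be told apart from more transcripts per cell.

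Levels of SPANX and of the ZBTB18 row were set side by side by library. FL replicate 2 had the most ZBTB18 of its group (3067 CPM) and also the most SPANX (682.9 CPM). In FL-mut the order was not kept: replicate 1 had the least ZBTB18 of the 3 (906.9 CPM) and the most SPANX (1058 CPM). SF-mut replicate 2 carried 3631 CPM of ZBTB18, more than any FL library, and had 27.7 CPM of SPANX, the lowest sum of all. Full-length libraries with 623.3 to 906.9 CPM of ZBTB18 and SF-mut libraries with 853 and 896 CPM thus had like levels of the row and SPANX sums of 332.0 to 1058 against 36.9 to 80.1 CPM.

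**Figure D2:**
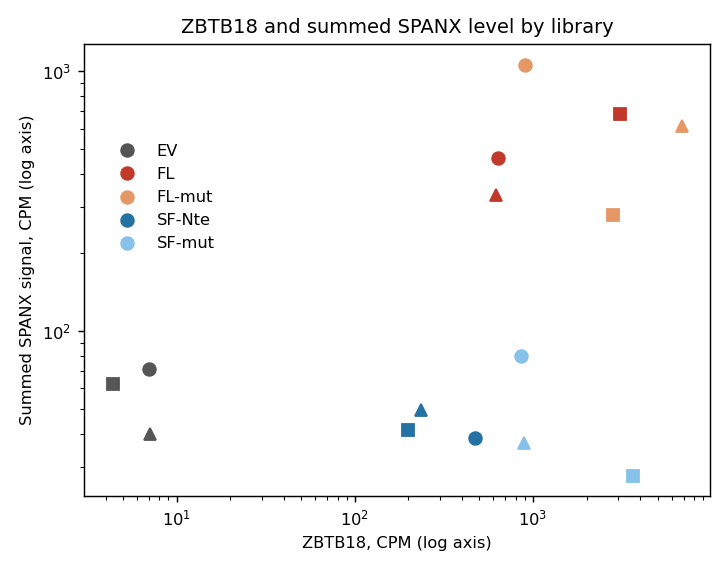
Level of ZBTB18 (horizontal) and summed level of the 4 distinct SPANX rows (vertical) in each of the 15 libraries, both in CPM on log axes, coloured by group, with circles, squares and triangles for replicates 1, 2 and 3. FL and FL-mut lie above 278 CPM of SPANX, and the SF-mut libraries, which span much of the same ZBTB18 range, lie at 80.1 CPM and below.

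Against EV, full-length ZBTB18 went with SPANX levels 6.79 to 11.6 times as high. In log2 units the difference was 3.53 ± 0.62 for SPANXB1, 3.33 ± 0.61 for SPANXC, 2.81 ± 0.56 for SPANXA1 and 2.76 ± 0.52 for SPANXD (± SE, edgeR fit over all 15 libraries), and 3.08 ± 0.49 for the sum, an 8.43-fold level. All 5 members passed the threshold of an adjusted p under 0.05. Of the 6767 genes tested 0.148% were called higher, 10 genes with the members and ZBTB18 among them. All 5 also had no overlap between the 2 groups, which held for 8.75% of genes in that direction. Both counts were fixed by the choice of the members. With any single EV library, FL replicate 1 or FL replicate 2 left out, fewer than 3 members passed, with a median log2 difference between 2.55 and 3.05 over all 6 such fits.

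The mutant of full-length ZBTB18 gave values of the same size. The log2 difference from EV was 3.81 ± 0.63 for SPANXB1, 3.79 ± 0.62 for SPANXC, 3.29 ± 0.57 for SPANXA1 and 3.18 ± 0.53 for SPANXD, and 3.48 ± 0.50 for the sum (11.2-fold). This comparison shares its EV libraries with that of FL. Here too all 5 members passed. The genes called in that direction, 0.0887% of those tested, were 6, namely the 5 members and ZBTB18. All 5 members had no overlap, as did 8.36% of genes. Both counts were again fixed by the choice of the members. The calls ended without EV replicate 2 or 3 or FL-mut replicate 1 or 3, and in a fit of these 2 groups alone, where the median difference was 3.26 with 0 of 5 called.

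FL-mut and FL did not differ detectably in any copy. The log2 differences of FL-mut from FL were 0.28 ± 0.55 (SPANXB1), 0.48 ± 0.52 (SPANXA1), 0.46 ± 0.54 (SPANXC) and 0.42 ± 0.48 (SPANXD), and 0.40 ± 0.45 for the sum with a 95% interval from -0.60 to 1.40. None of the 5 members passed, against 0.0887% of genes called in either direction. The interval holds lower as well as higher levels in FL-mut, so it does not show that both proteins act alike.

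With the short form SF-Nte the SPANX genes did not differ detectably from EV. The log2 difference from EV was -0.35 ± 0.67 for SPANXB1, -0.73 ± 0.60 for SPANXA1, -0.22 ± 0.70 for SPANXC and -0.28 ± 0.56 for SPANXD, beside a median of -0.13 over all genes tested. None of the 5 passed, with 0.0443% of genes called. SF-mut differed from EV by -0.24 ± 0.48 in the sum and by -0.14 to -0.32 in the single copies, again with 0 of 5 members called and 0.0591% of genes. For the sum the 95% interval ran from -1.51 to 0.64 in SF-Nte and from -1.30 to 0.82 in SF-mut, below the difference seen with either full-length protein.

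SF-mut against SF-Nte is the comparison that the choice of the members did not use. The filter on low counts, however, drew on all 15 libraries. SPANXC, with 9 counts in SF-Nte, 10 in SF-mut and 33 in EV, passed that filter through the full-length libraries. No copy passed the test: the log2 difference was 0.03 ± 0.74 for SPANXB1 (adjusted p = 0.99), 0.54 ± 0.63 for SPANXA1 (0.85), 0.08 ± 0.77 for SPANXC (0.99) and 0.07 ± 0.60 for SPANXD (0.99), by edgeR's quasi-likelihood test with Benjamini-Hochberg adjustment. The sum differed by 0.19 ± 0.50 (adjusted p = 0.96), with a 95% interval from -0.92 to 1.31. Of all genes tested 0% were called here, although 564 had an unadjusted p under 0.05 and DESeq2 called 4. The sums rest on 62 and 76 SPANX counts over 3 libraries, and a difference within that interval was not detectable at this depth.

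Short against full-length constructs gave the mirror image of the values against EV. SF-Nte lay below FL by a log2 difference of -3.88 ± 0.67 in SPANXB1, -3.53 ± 0.61 in SPANXA1, -3.55 ± 0.68 in SPANXC and -3.04 ± 0.56 in SPANXD. All 5 members were called lower, among 39 genes (0.576%), and all 5 had no overlap, as did 14.6% of genes in that direction. SF-mut lay below FL-mut by -4.13 ± 0.68, -3.48 ± 0.60, -3.93 ± 0.68 and -3.39 ± 0.56 in the same order. Here 5 of 5 were called, among 8 genes called lower (0.118%), and 5 of 5 had no overlap (8.02%). The FL and FL-mut libraries entered the choice of the members, so these counts are descriptions too. Fewer than 3 members passed in SF-Nte against FL without FL replicate 2 or any 1 of the SF-Nte libraries, and in SF-mut against FL-mut without FL-mut replicate 1 or 3 or SF-mut replicate 2 or 3. The median differences over all 6 fits that leave out 1 library ran from -3.78 to -3.27 and from -4.21 to -2.84. A fit of SF-mut and FL-mut alone gave a median of -3.50 with 0 of 5 called. SF-Nte stands on 1 sample sheet with FL, EV and FL-mut, whereas SF-mut and FL-mut share none.

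Whether mutation changed the response differently in the 2 forms was asked by the interaction. For the sum it was -0.21 ± 0.67 on the log2 scale, 0 of 5 members passed, and 0.0296% of genes were called.

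**Figure D3:**
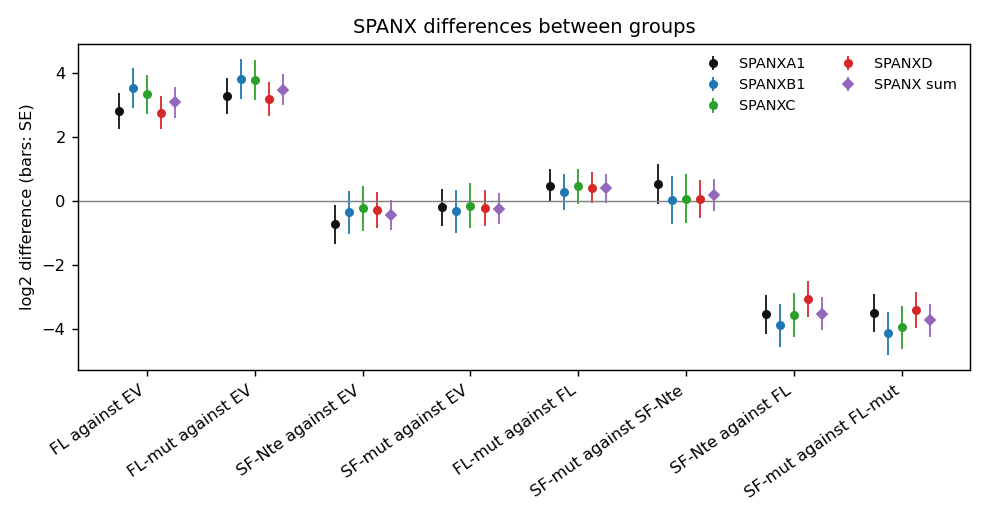
Log2 differences between groups for the 4 distinct SPANX rows and their sum in 8 comparisons, with bars of 1 SE from the edgeR fit; the grey line marks no difference. FL and FL-mut against EV lie between 2.76 and 3.81, both short-form against full-length comparisons between -3.04 and -4.13, and the other 4 within 0.73 of 0.

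How the copies varied among themselves was followed by the ratio of each copy's count to that of SPANXA1 in the same library, which compares libraries and not the abundance of the copies. SPANXD kept the closest step with SPANXA1. Its ratio lay between 0.66 and 0.78 in all 9 EV and full-length libraries. In 4 of the 6 short-form libraries the ratio was exactly 1.0, with counts of 7, 5 and 7 in SF-Nte and 2 in SF-mut replicate 2 for both genes. Whether the same reads were counted for several copies was not tested. SPANXC stood at 0.125 to 0.60 of SPANXA1, with a median of 0.43.

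SPANXB1 departed most from the others. Its ratio to SPANXA1 was 0.58, 0.61 and 0.56 in EV, and 0.64, 1.16 and 1.15 in FL. In FL-mut it was 0.67, 0.57 and 1.36, with 330 counts of SPANXB1 against 243 of SPANXA1 in replicate 3. Libraries of 1 group thus fell to both sides of 1, and the groups overlapped. SPANXB1 made up 22.3% of the SPANX counts of EV, 29.4% of those of FL and 29.6% of those of FL-mut. The short-form libraries ranged from 0.25 to 2.0 on at most 9 counts of SPANXB1 each.

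**Figure D4:**
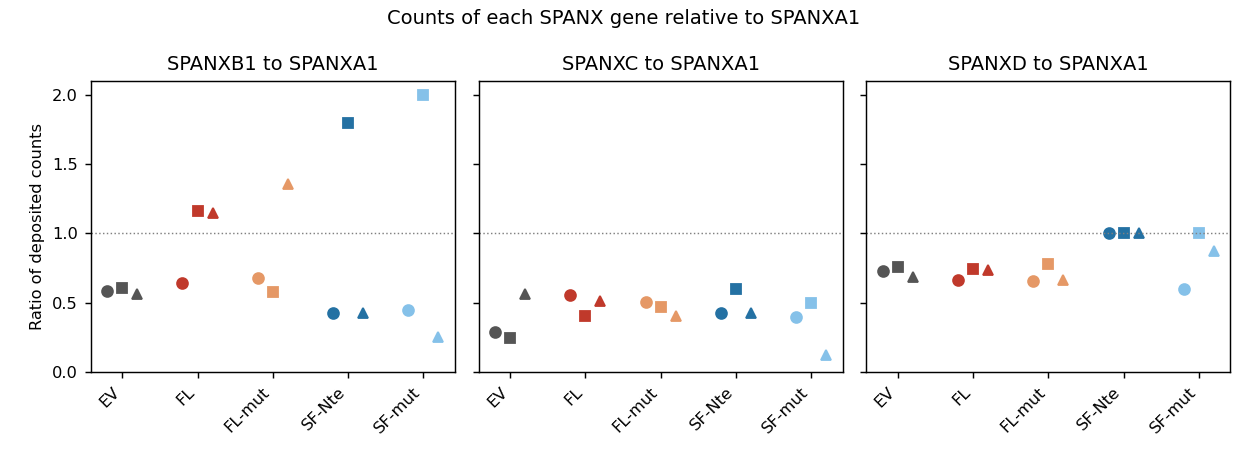
Ratio of the deposited counts of SPANXB1, SPANXC and SPANXD to those of SPANXA1 in each library, by group, with circles, squares and triangles for replicates 1, 2 and 3 and a dotted line at equal counts. SPANXD stays between 0.66 and 0.78 outside the short-form groups, and SPANXB1 exceeds SPANXA1 in FL replicates 2 and 3 and FL-mut replicate 3.

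The older SPANXN branch was barely read, and its 5 symbols in the table (SPANXN1 to SPANXN5) fell below the filter and were not tested. Together they had 1 count in EV, 22 in FL (95% exact Poisson interval 13.8 to 33.3), and 11 in FL-mut (5.49 to 19.7). The short form gave 0 and its mutant 2. EV had the largest total of the 5 groups, 4576627 counts against 3251365 in FL. The 0 of SF-Nte allows a level of up to 1.85 CPM (3 counts over the unscaled group total). SPANXN1 had 0 counts in each EV library, 5, 1 and 3 in the FL libraries and 2, 0 and 4 in those of FL-mut. SPANXN5, which lies on the short arm at chrX:52796144-52798101, away from all other members of the family, had 0 counts in EV, 6 in FL and 3 in FL-mut. For 100 counts of SPANXA1 there were 0.96 of SPANXN in EV, 4.4 in FL and 1.57 in FL-mut. The value was 0 in SF-Nte and highest in SF-mut at 6.67, which rests on 2 counts of SPANXN against 30 of SPANXA1. RefSeq windows of SPANXN1, SPANXN2, SPANXN3 and SPANXN5 were 83.33 to 87.38% identical to that of SPANXA1, and whether reads of the members were placed on SPANXN genes was not tested.

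Between the members on the chromosome lies LDOC1 (chrX:141175745-141177125, minus strand), a regulator of cell proliferation, and it was the only other gene of that stretch with enough counts to be tested. It had 13.6 ± 6.70 CPM in EV, 19.3 ± 8.33 in FL and 22.0 ± 22.5 in FL-mut (SD, n = 3). Its log2 difference from EV was 0.49 ± 0.89 in FL and 0.69 ± 0.89 in FL-mut and passed in neither. AC234778.1 and RBMX2P2, the other annotated genes of the stretch with reads, had 6 and 5 counts in all 15 libraries.

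Other cancer-testis genes on the X chromosome were given from a list of 102, of which 61 were in the table and 15 were tested. None passed in any of the 8 comparisons. Their median log2 difference from EV was 0.23 in FL (9 of 15 above 0) and 0.25 in FL-mut (12 of 15), against 2.81 and 3.29 for the SPANX genes and medians of -0.01 and 0.04 over all genes tested. In SF-Nte against FL and SF-mut against FL-mut the SPANX medians were -3.53 and -3.48, and those over all genes tested -0.15 and -0.09. There 14 and 12 of the 15 listed genes lay below 0, with medians of -0.57 and -0.90. CSAG1, the most counted of them with 14964 counts, had 913.9 ± 168 CPM in EV and 1536 ± 562 in FL, a log2 difference of 0.75 ± 0.29 that did not pass. IL13RA2, a decoy receptor for interleukin 13 that is common in glioblastoma, had 65.3 ± 48.3 CPM in EV, 311.7 ± 151 in FL and 77.6 ± 30.7 in FL-mut. Its log2 difference from EV was 2.25 ± 0.63 in FL, which did not pass with edgeR and was called by DESeq2 and by edgeR without the filter on low counts, and 0.25 ± 0.61 in FL-mut. The melanoma antigen genes MAGEA3 and MAGEA6, themselves near-identical copies, were read in all groups. MAGEA3 had 111.1 ± 17.6 CPM in EV, 82.6 ± 30.0 in FL and 259.6 ± 213 in FL-mut.

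Of 81 autosomal cancer-testis genes 50 were in the table and 14 tested, with medians of 0.25 in FL and -0.01 in FL-mut and 0 called. Their medians were -0.36 in SF-Nte against FL (9 of 14 below 0) and -0.06 in SF-mut against FL-mut (7 of 14). SPA17, a sperm surface protein, had 10.7 ± 3.36 CPM in EV, 34.2 ± 6.14 in FL and 8.20 ± 5.09 in FL-mut. Its log2 difference from EV was 1.66 ± 0.66 in FL and -0.35 ± 0.68 in FL-mut, and neither passed. CTAGE5, named for an antigen of cutaneous lymphoma, had 18.2 ± 3.59 CPM in EV and 39.9 ± 22.8 in FL, a difference of 1.13 ± 0.78 that did not pass. It had 15.1 ± 12.1 CPM in FL-mut and 16.7 ± 12.3 in SF-Nte. The highest mean was that of SF-mut with 49.6 ± 27.6 CPM, a difference from EV of 1.44 ± 0.80 that did not pass either.

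Genes of Xq26 to Xq28 outside these families, the region that holds the members, numbered 115 in the list, 92 in the table and 55 tested. Their medians were -0.05 in FL and 0.33 in FL-mut, with 0 called. In SF-Nte against FL the median was -0.18 (33 of 55 below 0), and in SF-mut against FL-mut -0.38 (41 of 55). ARHGEF6, an exchange factor for small GTPases, differed by -2.94 ± 1.14 in FL, and MOSPD1 by 1.55 ± 0.61, and neither passed. DNA methylation and histone silencing factors had 27 of 35 listed genes tested, 0 called, and medians of -0.16 in FL and -0.07 in FL-mut. HDAC2, a histone deacetylase, differed by 0.89 ± 0.53 in FL and did not pass. None of these lists was tested as a list.

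**Figure D5:**
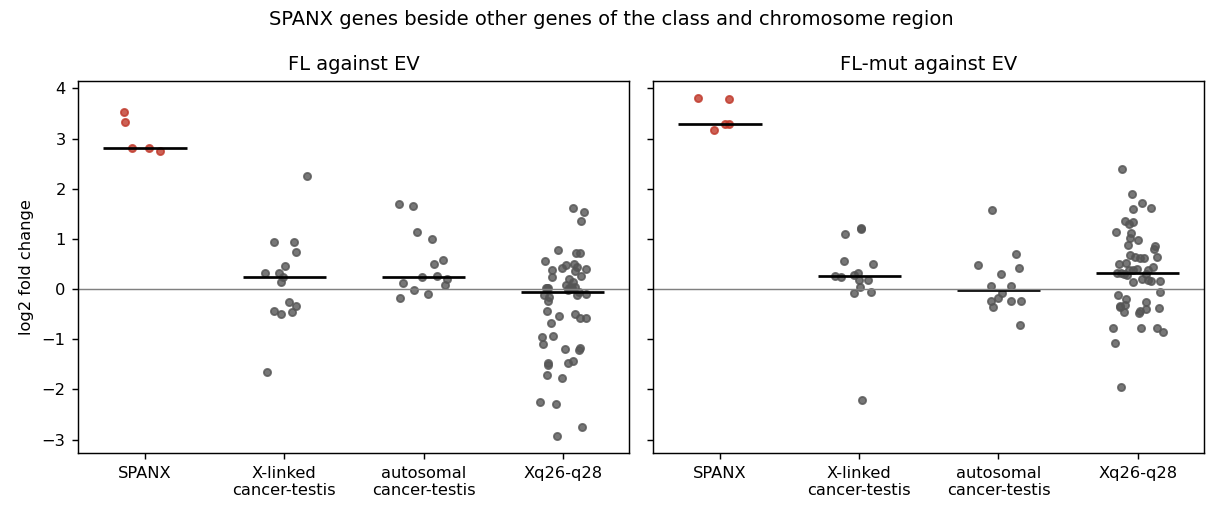
Log2 fold changes of single genes in FL against EV (left) and FL-mut against EV (right) for the 5 SPANX genes, other X-linked and autosomal cancer-testis genes and other genes of Xq26 to Xq28, with a black line at each median; horizontal scatter carries no value. The SPANX medians lie at 2.81 and 3.29, and those of the other lists between -0.05 and 0.33.

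Germ cell genes were nearly absent. Of 25 listed markers 6 were in the table, the protamine gene PRM1 and the transition protein gene TNP1 were not among them, and the summed level of the list was 16.03 to 25.5 CPM in EV, 16.2 to 43.6 in FL and 14.7 to 43.4 in FL-mut. ODF2, a sperm tail protein that many cells also use at the centrosome, was the only one tested (0.23 ± 0.87 in FL, not passed). Markers of immune cells summed to 3.27 to 34.7 CPM over all libraries and those of endothelial cells to 1.88 to 30.8. Epithelial markers, with 6 of 8 in the table, summed to 46.0 to 115.8 CPM in EV, 199.4 to 350.2 CPM in FL and 27.2 to 82.8 CPM with the full-length mutant. The short form had 49.8 to 75.3 CPM and its mutant 42.5 to 169.5 CPM. MUC1, a mucin, had the lowest p of that list (1.96 ± 0.93 in FL and -1.53 ± 0.95 in FL-mut, neither passed). Most of the epithelial sum in FL was this 1 gene, with 335.0, 194.0 and 166.5 CPM. The part of immune, endothelial or epithelial cells in the SPANX levels, if any, was not tested. KRT8, a keratin with the next lowest p of the epithelial list (0.32 ± 0.73), did not pass in FL, and neither did CD68 (-0.44 ± 0.81) and KDR (-0.06 ± 0.75), each the single tested marker of the immune and the endothelial list. Of the glial markers 9 were tested. Their median log2 difference from EV was -1.27 in FL (7 of 9 below 0) and -0.59 with its mutant, against 0.49 for the short form and 0.40 for its mutant. It was 1.65 in SF-Nte against FL and 0.85 in SF-mut against FL-mut, opposite in sign to the SPANX medians in each of these comparisons. The part of this in the SPANX levels was not tested. VIM differed by -1.27 ± 0.37 in FL, which did not pass, and was called higher in SF-Nte against FL (1.76 ± 0.38).

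The 8 tested genes whose levels were most like the SPANX sum were ranked by Pearson's r of log2(CPM + 1) over the 15 libraries, as a description, since depth and group are shared by all points. They were LRRK1 (0.92), ELOC (0.91), MICA (0.91), SDC2 (0.90), ATP6V1E1 (0.90), CITED1 (0.89), AC079597.3 (0.89) and SLC30A3 (0.89). MICA, a stress-induced ligand of the NKG2D receptor, had 214.0 ± 24.1 CPM in EV, 789.6 ± 253 in FL and 931.7 ± 579 in FL-mut. The short form left it at 143.4 ± 36.3 and its mutant at 142.5 ± 77.9 CPM. CITED1, a transcriptional coregulator, had 5, 0 and 0 counts in EV and 6, 41 and 5 counts in FL. The FL-mut libraries held 20, 35 and 123 counts, and all short-form libraries 0. Most of the FL counts came from replicate 2 (51.0 CPM), and the other FL libraries, at 4.16 and 4.84 CPM, were close to the 2.50 CPM of EV replicate 1. SDC2, a heparan sulfate proteoglycan, had 1.91 ± 0.53 CPM in EV, 19.0 ± 7.92 in FL and 16.2 ± 15.6 in FL-mut. LRRK1, a protein kinase, had 39.1 ± 16.2 CPM in EV, 233.0 ± 205 in FL and 146.2 ± 95.3 in FL-mut. ATP6V1E1, a subunit of the vacuolar proton pump, had 74.5 ± 8.33 CPM in EV, 131.5 ± 34.7 in FL and 111.6 ± 27.3 in FL-mut. ELOC, the elongin C subunit, had 1213 ± 242 CPM in EV, 2646 ± 1443 in FL and 2746 ± 660 in FL-mut.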

How the data were processed

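Polyadenylated RNA was read as PCR-amplified cDNA with Oxford Nanopore kits, per the labels' protocols, without molecular identifiers. The authors deposited raw counts per gene symbol, and the submitters' processing notes name the build GRCh38. How reads were counted, whether by strand and how between matching copies, is not given in the sources used here, so counts of near-identical copies are uncertain. Groups came from the sample titles. Counts were tested with edgeR 4.0.16 (R 4.3.3): filterByExpr (minimum count 10, minimum total 15) kept 6767 genes and dropped 11718. After TMM scaling, robust quasi-likelihood fits used all 15 libraries and 1 term for each group (10 residual degrees of freedom), with Benjamini-Hochberg adjustment at 0.05. The script was tested on simulated data. DESeq2 1.42.0, its size factors, no filter, a replicate block, fits of the compared groups alone and each library left out were alternatives. Counts were also refitted with the members replaced by the sum of the 4 distinct rows.

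The members, lists and naming rule were chosen with earlier results of these data known. Named were all SPANX symbols, ZBTB18, list members that passed (where none did, the 2 with the lowest p in FL against EV), and the 8 genes most like the SPANX sum; MAGEA3, MAGEA6, GFAP and LDOC1 were added after their values were seen, and 1 gene that the rule names is not reported here. AKAP4, TFDP3 and IL13RA2 were first listed as autosomal and were moved to the X-linked list by their annotated chromosome, with values known. Within every group, replicates differed beyond counting noise, with a chi-square of 3.82 to 29.1 per gene. Over 3799 genes with a mean over 20 CPM, same-numbered libraries of 2 groups were compared by their deviations from the group means. The limit of r = 0.1 was passed in all 3 replicates by EV and FL (0.34, 0.15 and 0.41). FL and SF-mut passed it too (0.13, 0.11 and 0.27), and no other pair of groups did so in all 3. FL-mut and SF-mut shared larger deviations in replicates 1 and 2 (0.48 and 0.58) than either of these pairs and missed the limit in replicate 3 (0.066). EV and SF-mut reached 0.40 in replicate 3. Shared deviations were thus not confined to the pairs of groups that passed in all 3 replicates. The main fits held no term for the replicate number, so their differences and SE ignore any pairing. Only the replicate block, an alternative, had such a term, and it covered all 15 libraries. The labels give no meaning for the replicate numbers.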

Additional observations from a re-analysis of the deposited data

How the results depend on the processing

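DESeq2, its size factors in edgeR, no filter and the replicate block kept every call on the family in the 9 comparisons; with the replicate block 5 of 5 members passed in FL against EV, as without it, and blocked values changed no other call. Fitting only the compared groups ended 2 calls: FL-mut against EV (median 3.26, summed row 3.45, adjusted p 0.097) and SF-mut against FL-mut (median -3.50, summed row -3.73, adjusted p 0.28). By construction such fits have fewer samples. Near 0, SF-mut against SF-Nte turned sign for SPANXB1 without the filter (-0.021) and for SPANXC with the replicate block (-0.11). Of the cancer-testis and Xq lists 0 genes were called, 2 with DESeq2 (IL13RA2 and MPP1), 12 without the filter (IL13RA2 among them) and 1 in fits of the compared groups alone (IL13RA2, SF-Nte against FL).

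With each library of a comparison left out in turn, the median log2 difference of the members ranged from 2.55 to 3.05 (FL against EV, called in 1 of 6 fits), 2.65 to 3.61 (FL-mut against EV, 2 of 6), -3.78 to -3.27 (SF-Nte against FL, 2 of 6) and -4.21 to -2.84 (SF-mut against FL-mut, 2 of 6). The summed row ranged from 2.77 to 3.29 (called in 3 of 6), 2.94 to 3.81 (3 of 6), -3.73 to -3.20 (6 of 6) and -4.34 to -3.18 (2 of 6). Calls in SF-Nte against FL ended without FL replicate 2 or any SF-Nte library, and in SF-mut against FL-mut without FL-mut replicate 1 or 3 or SF-mut replicate 2 or 3. In comparisons that were never called the medians ranged from -0.16 to 0.79 (FL-mut against FL), -0.58 to -0.16 (SF-Nte against EV), -0.96 to 0.11 (SF-mut against EV), -0.37 to 0.45 (SF-mut against SF-Nte) and -0.73 to 0.40 (interaction), and the summed row from -0.14 to 0.75, -0.64 to -0.25, -0.90 to 0.017, -0.46 to 0.45 and -0.85 to 0.33 in the same order. Single copies in SF-mut against SF-Nte ranged from -0.22 to 0.90 (SPANXA1, SPANXA2), -0.46 to 0.61 (SPANXB1), -1.34 to 0.45 (SPANXC) and -0.37 to 0.36 (SPANXD).

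Counts over all genes depended on the tool: FL against EV had 21 genes called by edgeR, 128 by DESeq2 and 202 without the filter, FL-mut against EV 13, 145 and 219, SF-Nte against FL 72, 296 and 301, and SF-mut against FL-mut 11, 99 and 134. For SF-Nte against EV these counts were 3, 24 and 121, for SF-mut against EV 4, 25 and 81, for FL-mut against FL 6, 112 and 348, for SF-mut against SF-Nte 0, 4 and 193, and for the interaction 2, 8 and 49. Fits of the compared groups alone called 12 genes in FL against EV (4 of the 5 members among them), 3 in FL-mut against EV, 99 in SF-Nte against FL and 0 in SF-mut against FL-mut. SF-Nte and SF-mut had 2 to 20 counts of SPANXA1 in a library, which limits comparisons below the EV level.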

Other observations

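Below the count filter, other cancer-testis genes of the X chromosome were read in more cases with the full-length proteins, a pattern chosen after its values were seen and not tested. Of the 102 listed genes 46 were in the table without being tested, and 33 rows remained once rows with the same counts in all 15 libraries, which can be copies or genes with a single read, were counted once. Of these 33, 15 had a count in at least 1 EV library, 28 did so in FL and 25 did so in FL-mut, while the short form left 10 and its mutant 7. Of all 33 rows, 15 (45.5%) had 0 counts in EV and were read in FL, and 12 (36.4%) did so in FL-mut. In each, 2 rows went the opposite way. More of these rows could appear outside EV alone, since 54.5% were at 0 in EV against 27.7% of all untested genes. Rows with the same counts were not merged among all untested genes. Over all 11718 untested genes the shares were alike in both directions: 15.5% were read in FL but not in EV and 14.7% in EV but not in FL, although EV had the larger total. For FL-mut these shares were 15.1% and 15.3%. At 0 in SF-Nte and SF-mut were 69.7% and 78.8% of the 33 rows, beside 51.7% and 49.5% of all untested genes.

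The single counts are small. MAGEC2, a melanoma antigen gene, had 0 counts in EV, 7 in FL, 10 in FL-mut and 0 in both short-form groups. PAGE4, a prostate-associated antigen gene, had 0, 7 and 3 in EV, FL and FL-mut, and SSX4, a synovial sarcoma breakpoint gene with the same counts as its copy SSX4B, had 0, 4 and 6. CTAG1A, which shared all its counts with CTAG1B and CTAG2 and encodes NY-ESO-1, had 4 counts in FL and 0 in the other 4 groups. Summed over the 33 rows, levels overlapped between groups at 37.3 to 53.2 CPM (unscaled) in EV, 37.3 to 136.0 in FL and 49.7 to 99.7 in FL-mut. The untested autosomal cancer-testis genes had 30.6% of 36 rows read in FL but not in EV and 13.9% the opposite way, and those of Xq26 to Xq28 outside the families had 14.7% of 34 rows each way. In the short-form groups, with fewer counts, 1 (SF-Nte, 3.03%) and 0 (SF-mut) of the 33 X-linked rows were read that EV lacked. Over all untested genes these shares were low too, at 5.04% and 5.38%.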
